A study of Homo sapiens with 12 samples.

Results

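Genes of mitosis and of the transition from G2 into mitosis were followed in the ML-2 line of human acute myeloid leukaemia after a hypomethylating agent, an antagonist of inhibitor of apoptosis proteins, or both in sequence. The set held 48 genes, each read from its brightest probe set over the 12 arrays. It is a list of known mitotic genes that was chosen with earlier results of these data known. All 48 had a probe set annotated to that gene alone, and all 48 were among the 12689 genes tested out of 19775 with a probe set. The combination group received 2 µM SGI-110 for 24 h and then 5 µM ASTX660 for 9 h. The SGI-110 group received 2 µM SGI-110, labelled as 33 h, with solvent in place of ASTX660. The ASTX660 group received solvent first and then 5 µM ASTX660 for 9 h, and the solvent group received solvent at both steps. Each group held 3 arrays, numbered 2, 9 and 13 in their titles. The design text speaks of 3 independent experiments of this 1 cell line, and the labels do not say that the array numbers are those experiments. The study asked whether SGI-110 makes leukaemia cells more sensitive to an antagonist of inhibitor of apoptosis proteins.

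SGI-110, also called guadecitabine, releases decitabine, a cytidine analogue that enters DNA and traps DNA methyltransferases. ASTX660 binds inhibitor of apoptosis proteins and lifts their block on cell death. Entry into mitosis is driven by the kinase CDK1 with cyclin B. The spindle checkpoint then holds cells before anaphase until every kinetochore is attached to microtubules, and the anaphase-promoting complex with CDC20 ends the block. Most of these genes are transcribed late in the cycle by B-MYB and FOXM1 with the MuvB complex, which recognises a short promoter element called CHR, often close to CCAAT boxes bound by NF-Y. In quiescent cells, or after p53 raises the CDK inhibitor p21, the related DREAM complex represses the same promoters.

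Values are log2 intensities, so a difference of 1 is a doubling of array signal. The members' mean levels ran from 7.132 for PLK1 to 12.096 for CDK1 with a median of 10.2, above the array medians of 4.688 to 4.774. The first principal component, with 51.2% of the variance, parted arrays with SGI-110 from those without it. The third component, with 11.7%, set ASTX660 array 2 apart from the rest. Of 11 myeloid markers with a probe set, 9 lay above every array median on all arrays, with ELANE, LYZ, MPO and PRTN3 the brightest, while MEIS1 lay below. Of 13 markers of other cell types, 6 lay above every array median and 4 below. Differences between 3′ and 5′ control probe sets stayed between -0.06 and 0.02 for GAPDH and between -0.1 and 0.08 for ACTB.

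The mitotic genes of the set were lower in cells given SGI-110 than in solvent cells. Of the 48 members, 22 fell at an adjusted p under 0.05 and 0 rose, against a background of 5.9% of all tested genes called lower and 9.5% called higher. The changes were small, with a median of -0.25 on the log2 scale against 0.00 over all genes tested, and 46 of 48 members were below 0. In 72 tested mitotic genes outside the set the fall was smaller, with a median of -0.06, 9.72% called lower and 0 called higher. Of those 72, 49 (68.1%) were below 0, against 49.8% of all genes. Both lists were chosen with earlier results of these data known, so the contrast between them is not a test. At an adjusted p under 0.01, 11 members fell, against 2.38% of all genes. The widest changes were HMMR at -0.53, KIF20A at -0.49 and KIF18A at -0.47. The 3 SGI-110 arrays lay below the 3 solvent arrays without overlap for 26 members, against 16.6% of all genes. Over both treatments, all 6 arrays with SGI-110 lay below all 6 without it for 20 members, against 7.92% of all genes. In these bulk RNA samples, fewer cells in G2 or mitosis and less mitotic RNA per cell cannot be told apart.

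SGI-110 and solvent arrays of the same number deviated together from their group means (r from 0.367 to 0.572 over all genes), so the array number was also fitted as a block. With the block, 33 members fell in SGI-110 cells and 0 rose, against 10.4% of all genes called lower and 14.9% called higher. The 22 members called without the block were all called with it. The 11 added members were AURKA, AURKB, CDCA3, CDCA8, CDK1, CENPF, CKS1B, KIF11, KIF14, KIF23 and KIF2C.

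**Figure D1:**
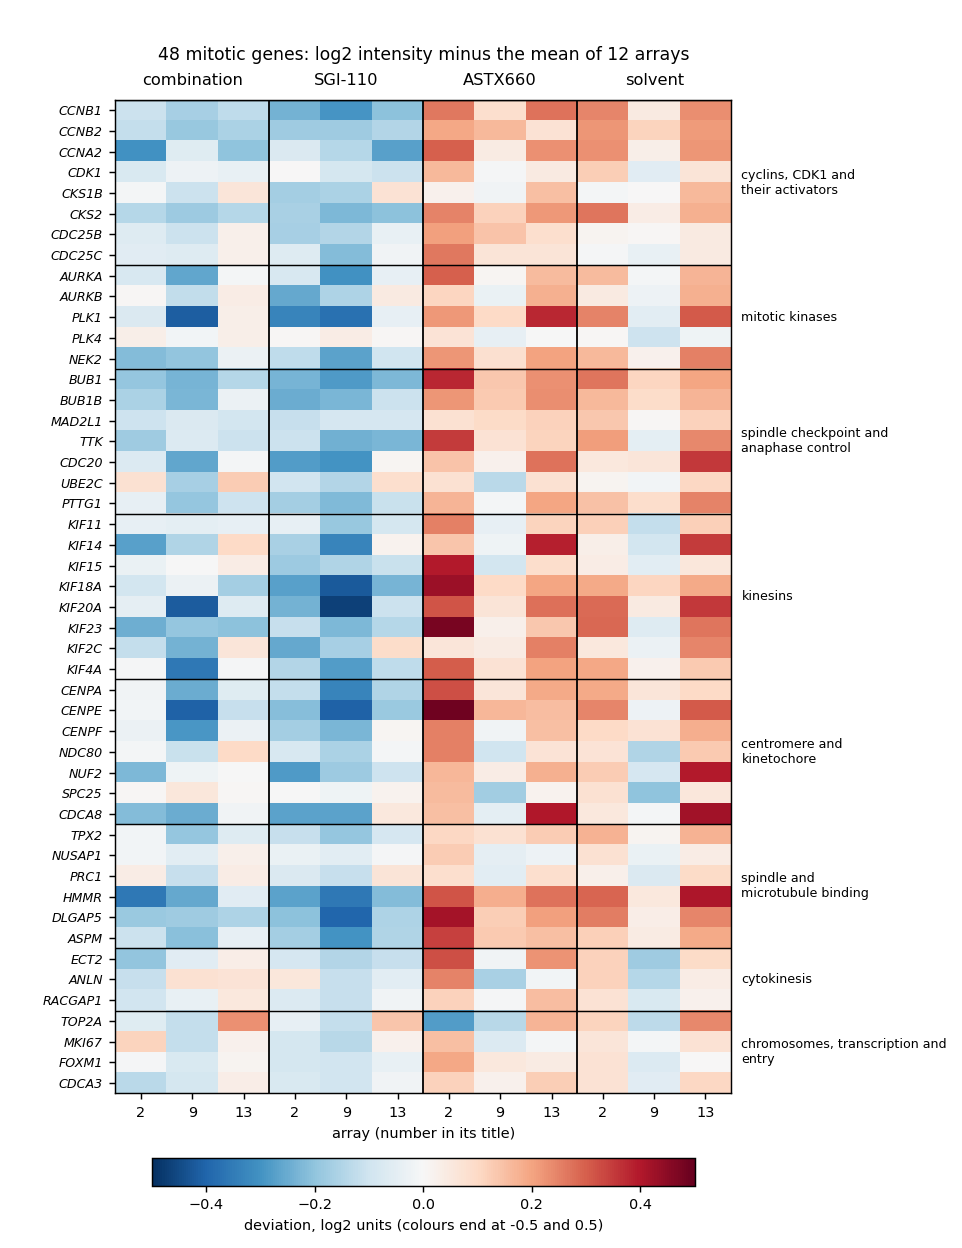
Each cell gives a member's log2 intensity on 1 array minus its mean over the 12 arrays, with members grouped by role from top to bottom and arrays grouped as combination, SGI-110, ASTX660 and solvent. Most rows are blue (below their mean) on the 6 arrays with SGI-110 and red (above it) on the 6 without, and the arrays numbered 9 are the palest of the ASTX660 and solvent groups.

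The level of the members also differed between array numbers. The median deviation of the members from their own means was -0.07, -0.14 and -0.01 on combination arrays 2, 9 and 13, and -0.14, -0.19 and -0.08 on the SGI-110 arrays. It was 0.22, 0.03 and 0.16 on the ASTX660 arrays and 0.12, -0.01 and 0.17 on the solvent arrays. Array 9 was thus the lowest in all 4 groups. Between arrays numbered 2, 9 and 13, SGI-110 cells were below solvent cells for 47, 43 and 47 members, with median differences of -0.29, -0.17 and -0.24. For all 3 numbers SGI-110 was lower for 43 members, against 27.9% of all genes, and the others were PLK4, SPC25, ECT2, ANLN and TOP2A.

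The promoters of 4 members are shown because these genes hold the CHR sequence TTTGAA and had the smallest adjusted p among such members for the combination against ASTX660. The sequences are from RefSeq on GRCh38.p14 and run from 250 bases before to 50 bases after the gene's start. Capitals mark TTTGAA, its variant TTTAAA and the box CCAAT on either strand, so TTTGAA reads as TTCAAA, and CCAAT reads as ATTGG, where the motif lies on the other strand. CCNB2 is at chr15:59104896-59105195, CKS2 at chr9:89310945-89311244, BUB1B at chr15:40160819-40161118 and HMMR at chr5:163460382-163460681, all on the plus strand.
CCNB2: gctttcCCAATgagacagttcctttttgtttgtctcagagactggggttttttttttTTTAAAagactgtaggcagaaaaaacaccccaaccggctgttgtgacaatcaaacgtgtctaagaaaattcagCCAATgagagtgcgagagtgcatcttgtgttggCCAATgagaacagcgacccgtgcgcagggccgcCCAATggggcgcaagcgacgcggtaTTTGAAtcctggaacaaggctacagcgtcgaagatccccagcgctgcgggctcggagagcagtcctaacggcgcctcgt
CKS2: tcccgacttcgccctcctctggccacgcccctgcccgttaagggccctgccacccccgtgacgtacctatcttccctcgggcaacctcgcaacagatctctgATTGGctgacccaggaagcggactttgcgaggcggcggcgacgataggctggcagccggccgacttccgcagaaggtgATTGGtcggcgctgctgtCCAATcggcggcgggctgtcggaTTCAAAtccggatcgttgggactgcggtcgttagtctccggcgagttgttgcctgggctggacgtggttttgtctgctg
BUB1B: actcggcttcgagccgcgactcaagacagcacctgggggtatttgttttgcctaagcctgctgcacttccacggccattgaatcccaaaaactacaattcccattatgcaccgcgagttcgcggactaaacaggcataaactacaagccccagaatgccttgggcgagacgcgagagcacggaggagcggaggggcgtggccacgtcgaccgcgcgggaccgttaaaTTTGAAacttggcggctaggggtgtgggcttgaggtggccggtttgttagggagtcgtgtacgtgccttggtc
HMMR: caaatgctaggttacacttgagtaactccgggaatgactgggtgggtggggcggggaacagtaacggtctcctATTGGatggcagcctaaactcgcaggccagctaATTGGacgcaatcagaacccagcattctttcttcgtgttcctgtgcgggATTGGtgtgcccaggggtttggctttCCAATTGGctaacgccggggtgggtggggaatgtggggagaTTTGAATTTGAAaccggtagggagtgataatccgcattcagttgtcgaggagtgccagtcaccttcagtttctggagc

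The first base of TTTGAA lay at -29 in CCNB2 and, on the minus strand, at -29 in CKS2, counted from the start of the gene. It lay at -23 in BUB1B, whose window held no CCAAT, and HMMR held the motif 2 times in a row, at -28 and -22. Promoters of 42 of the 48 members were in the table, as 54 promoter windows. TTTGAA was found on either strand in 32 of the 42 genes (76.2%), against 15.2% of all 35116 promoters and 13.9% of 10227 tested genes with a promoter in the table. CCAAT was found in 35 of the 42 (83.3%), against 34.6% of all promoters and 42.9% of tested genes. Both motifs occurred in 26 (61.9%), against 5.9% of promoters and 5.69% of tested genes. The variant TTTAAA occurred in 15 (35.7%), against 12.2% and 10.6%. Of 47 matches of TTTGAA in the members, 33 (70.2%) lay within 50 bases of the start, against 27.2% of 6193 matches in all promoters. TTTGAA was present in 14 of 22 members called lower in at least 1 of the 3 comparisons that involve SGI-110 or the combination against a group without SGI-110. It was present in 18 of 20 members called in none of these. These are matches of letters in a window and do not show that a factor binds there.

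Among cyclins, CDK1 and their activators, 4 of 8 members fell in SGI-110 cells, namely CCNB1, CCNB2, CCNA2 and CKS2. CCNB2, a cyclin B, read 11.56, 11.49 and 11.52 with the combination, 11.5, 11.5 and 11.53 with SGI-110, 11.87, 11.84 and 11.75 with ASTX660, and 11.9, 11.79 and 11.89 with solvent. CCNB1, the main mitotic cyclin, read 10.93, 10.87 and 10.91 with the combination, 10.8, 10.74 and 10.83 with SGI-110, 11.3, 11.12 and 11.31 with ASTX660, and 11.28, 11.08 and 11.27 with solvent. Both groups with SGI-110 lay below both groups without it for CCNB2 and CCNB1. Against solvent, SGI-110 lowered CCNB2 by 1.27-fold (log2 change -0.35, SE 0.041, adjusted p = 0.000108) and CCNB1 by 1.34-fold (log2 change -0.42, SE 0.061, adjusted p = 0.000457). CKS2, a small subunit of the cyclin-dependent kinases, read 11.95, 11.91 and 11.95 with the combination, 11.93, 11.87 and 11.89 with SGI-110, 12.34, 12.21 and 12.31 with ASTX660, and 12.36, 12.13 and 12.27 with solvent. It was 1.28-fold lower in SGI-110 than in solvent cells (adjusted p = 0.000397), again with no overlap.

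CCNA2, the cyclin of S phase and G2, read 10.73, 10.97 and 10.83 with the combination, 10.96, 10.89 and 10.76 with SGI-110, 11.33, 11.07 and 11.26 with ASTX660, and 11.26, 11.06 and 11.25 with solvent. Its 6 arrays with SGI-110 did not overlap its 6 arrays without, and SGI-110 lowered it by 1.25-fold against solvent (adjusted p = 0.0161). Dropping array 2 or 13 of the solvent group, or array 13 of the SGI-110 group, ended that call, with adjusted p between 0.0588 and 0.0735. CDK1 itself, the brightest member, read 12.02, 12.07 and 12.06 with the combination, 12.1, 12.01 and 11.99 with SGI-110, 12.26, 12.09 and 12.14 with ASTX660, and 12.22, 12.04 and 12.16 with solvent. The SGI-110 and solvent arrays overlapped and the difference of -0.11 (95% interval -0.22 to 0.00) did not pass the test (adjusted p = 0.193, and 0.0498 with the array number as a block). CDC25C, a phosphatase that activates CDK1, read 7.32, 7.17 and 7.37 with SGI-110 and 7.38, 7.35 and 7.43 with solvent, which overlapped (log2 change -0.1, adjusted p = 0.454). CDC25B (-0.13) and CKS1B (-0.13) also missed the threshold against solvent.

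Of 5 mitotic kinases, PLK1 and NEK2 were called lower in SGI-110 cells. PLK1, which acts from mitotic entry to cytokinesis, was the dimmest member and read 7.06, 6.72 and 7.16 with the combination, 6.8, 6.76 and 7.09 with SGI-110, 7.35, 7.23 and 7.51 with ASTX660, and 7.38, 7.08 and 7.44 with solvent. SGI-110 array 13 was just above solvent array 9, so the groups overlapped. The difference was -0.42 (SE 0.131, adjusted p = 0.0425), and dropping array 2 or 13 of the solvent group or array 2 or 9 of the SGI-110 group ended the call (adjusted p between 0.133 and 0.148), as did dropping combination array 2 (adjusted p = 0.0511). NEK2, a kinase of centrosome separation, was 1.24-fold lower (adjusted p = 0.0116), a call that ended when solvent array 13 (adjusted p = 0.055) or SGI-110 array 9 (adjusted p = 0.0539) was dropped. AURKA, which matures centrosomes, read 10.65, 10.43 and 10.69 with SGI-110 and 10.89, 10.72 and 10.9 with solvent. Those arrays did not overlap, but the difference of -0.25 missed the threshold (adjusted p = 0.0779, and 0.000313 with the array number as a block). AURKB, the kinase of the chromosomal passenger complex, read 9.19, 9.29 and 9.49 with SGI-110 and 9.49, 9.42 and 9.62 with solvent, with overlap and a difference of -0.19 (adjusted p = 0.153, and 0.017 with the block). PLK4, which starts centriole duplication, was the only member whose SGI-110 arrays all lay above the solvent arrays (19.5% of all genes did so), by 0.05 on the log2 scale (adjusted p = 0.552).

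Of 7 genes of the spindle checkpoint and of the control of anaphase, 6 were lower in SGI-110 cells. BUB1, a checkpoint kinase at kinetochores, read 9.54, 9.5 and 9.59 with the combination, 9.5, 9.45 and 9.51 with SGI-110, 10.11, 9.87 and 9.96 with ASTX660, and 10.0, 9.84 and 9.93 with solvent. BUB1B, or BUBR1, a subunit of the mitotic checkpoint complex, read 10.47, 10.4 and 10.6 with the combination, 10.38, 10.4 and 10.52 with SGI-110, 10.85, 10.76 and 10.86 with ASTX660, and 10.79, 10.72 and 10.8 with solvent. In each gene every array with SGI-110 lay below every array without it. Against solvent, SGI-110 lowered BUB1 by 1.35-fold (adjusted p = 0.000552) and BUB1B by 1.26-fold (adjusted p = 0.0015). MAD2L1, which holds CDC20 in the checkpoint complex, was steadier between arrays and read 11.04, 11.07 and 11.05 with the combination, 11.03, 11.06 and 11.06 with SGI-110, 11.22, 11.24 and 11.26 with ASTX660, and 11.28, 11.15 and 11.26 with solvent. Its fall in SGI-110 cells was 1.13-fold (adjusted p = 0.00766).

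PTTG1, securin, which keeps separase inactive until anaphase, read 11.8, 11.65 and 11.74 with the combination, 11.67, 11.62 and 11.73 with SGI-110, 12.01, 11.83 and 12.04 with ASTX660, and 11.99, 11.93 and 12.09 with solvent. The groups with and without SGI-110 did not overlap, and the fall against solvent was 1.26-fold (adjusted p = 0.00195). The probe set of PTTG1 is of a type that can read related transcripts, as are those of CENPA and FOXM1, so these values are for the probe sets. TTK, the kinase that starts checkpoint signalling, was 1.25-fold lower with SGI-110 (adjusted p = 0.022), and dropping array 2 or 13 of the solvent group or array 9 or 13 of the SGI-110 group ended the call (adjusted p between 0.0729 and 0.0924). CDC20, the activator of the anaphase-promoting complex, was 1.27-fold lower (adjusted p = 0.0303), and dropping array 13 of the solvent group or array 2 or 9 of the SGI-110 group ended the call (adjusted p between 0.111 and 0.13). UBE2C, the ubiquitin-conjugating enzyme of that complex, differed by -0.09 and was not called (adjusted p = 0.514).

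Of 8 kinesins, motor proteins that move on spindle microtubules, KIF18A, KIF20A and KIF4A fell in SGI-110 cells. KIF18A, which limits chromosome movement at the metaphase plate, read 7.18, 7.24 and 7.1 with the combination, 7.0, 6.85 and 7.04 with SGI-110, 7.7, 7.37 and 7.47 with ASTX660, and 7.46, 7.38 and 7.46 with solvent. It was 1.38-fold lower with SGI-110 than with solvent (log2 change -0.47, SE 0.088, adjusted p = 0.00271) and the 6 arrays with SGI-110 lay below the 6 without. KIF20A, which acts at the central spindle in cytokinesis, fell by 1.41-fold (adjusted p = 0.011), and without SGI-110 array 9 its adjusted p was 0.05. KIF4A, a motor on chromosome arms, had a log2 change of -0.3 (adjusted p = 0.0452). Dropping any 1 of the SGI-110 or solvent arrays, or ASTX660 array 13, ended its call, with adjusted p between 0.0531 and 0.154. The 5 others, KIF11, KIF14, KIF15, KIF23 and KIF2C, had log2 changes between -0.32 and -0.15 and were not called. KIF11, KIF14, KIF23 and KIF2C passed with the array number as a block (adjusted p between 0.00189 and 0.0494).

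**Figure D2:**
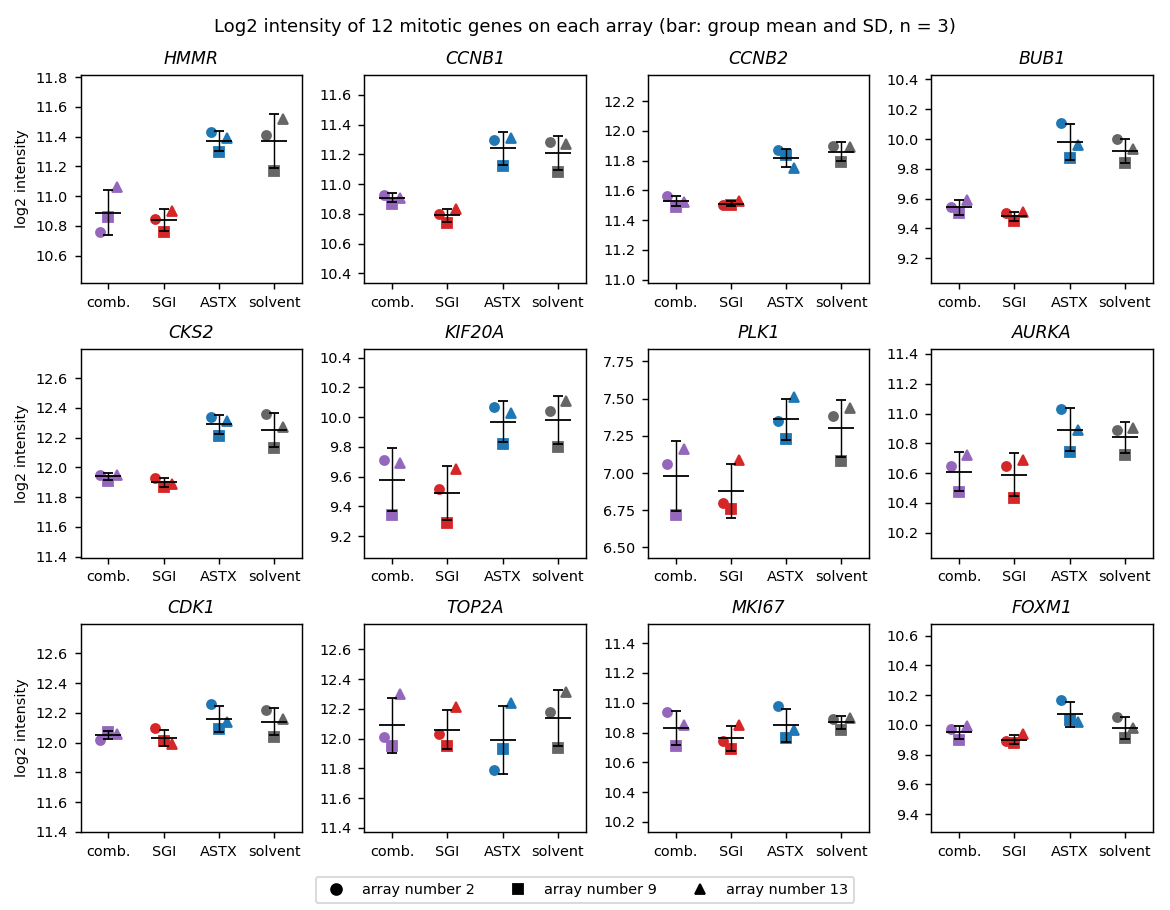
Log2 intensity of 12 members on every array, with the group mean and SD (n = 3) as bars and the array number as the marker shape. HMMR, CCNB1, CCNB2, BUB1, CKS2 and KIF20A have all 6 arrays with SGI-110 below the 6 without. The groups overlap for PLK1, CDK1, TOP2A, MKI67 and FOXM1, and AURKA reads 10.72 on both combination array 13 and solvent array 9.

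Among 7 centromere and kinetochore genes, CENPA, CENPE and NUF2 were lower in SGI-110 cells. CENPA, the histone variant that marks centromeres, was 1.25-fold lower (adjusted p = 0.0176), and without solvent array 2 or SGI-110 array 9 the adjusted p was 0.0755 or 0.0802. CENPE, a kinetochore motor that carries chromosomes to the plate, was 1.36-fold lower (adjusted p = 0.0199), and dropping array 2 or 13 of the solvent group or array 9 of the SGI-110 group ended the call (adjusted p between 0.0719 and 0.0816). NUF2, a subunit of the NDC80 complex that grips microtubules, was 1.26-fold lower (adjusted p = 0.0392), and dropping array 2 or 13 of the solvent group or any 1 array of the SGI-110 group ended the call (adjusted p between 0.0523 and 0.162). The 2 other subunits of that complex in the set moved less and were not called, with log2 changes of -0.1 for NDC80 and 0.02 for SPC25. CDCA8, or borealin, differed by -0.32 (adjusted p = 0.122, and 0.000487 with the block), and CENPF by -0.25 (adjusted p = 0.0669, and 0.0022 with the block).

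Of 6 genes of the spindle and of microtubule binding, HMMR, DLGAP5, ASPM and TPX2 fell, and NUSAP1 and PRC1 were not called. HMMR, a spindle pole protein, had the widest change of all members and read 10.76, 10.86 and 11.06 with the combination, 10.85, 10.76 and 10.9 with SGI-110, 11.43, 11.3 and 11.39 with ASTX660, and 11.41, 11.17 and 11.52 with solvent. The groups with and without SGI-110 were apart, and SGI-110 lowered HMMR by 1.44-fold against solvent (log2 change -0.53, SE 0.085, adjusted p = 0.00103). DLGAP5, or HURP, which stabilises the microtubules that pull on kinetochores, read 10.03, 10.04 and 10.06 with the combination, 10.01, 9.82 and 10.06 with SGI-110, 10.63, 10.34 and 10.42 with ASTX660, and 10.47, 10.25 and 10.46 with solvent. ASPM, a protein of spindle poles, read 10.63, 10.53 and 10.7 with the combination, 10.57, 10.44 and 10.59 with SGI-110, 11.08, 10.87 and 10.89 with ASTX660, and 10.86, 10.78 and 10.93 with solvent. Neither gene had an array with SGI-110 above one without, and their falls against solvent were 1.35-fold for DLGAP5 (adjusted p = 0.00292) and 1.25-fold for ASPM (adjusted p = 0.00442, and 0.152 with the mean of its probe sets). TPX2, which activates AURKA on the spindle, was 1.19-fold lower (adjusted p = 0.0109, and 0.0507 without solvent array 2).

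The 3 genes grouped here under cytokinesis and the broad markers of proliferation did not pass the test for SGI-110 against solvent. KIF20A, counted with the kinesins, also acts in cytokinesis and was called. ECT2 (-0.13), ANLN (-0.04) and RACGAP1 (-0.07), which position and contract the cleavage furrow, were all uncalled. ECT2 passed for the combination against ASTX660 only with the array number as a block (-0.25, adjusted p = 0.0177). TOP2A, the topoisomerase that untangles sister chromatids, read 12.03, 11.95 and 12.21 with SGI-110 and 12.18, 11.94 and 12.31 with solvent. MKI67, the Ki-67 protein of the chromosome surface, read 10.74, 10.69 and 10.85 with SGI-110 and 10.89, 10.82 and 10.9 with solvent. FOXM1, a transcription factor of many of these genes, read 9.89, 9.88 and 9.94 with SGI-110 and 10.05, 9.91 and 9.98 with solvent. The arrays overlapped for all 3, with log2 changes of -0.08 for TOP2A (95% interval -0.34 to 0.17), -0.11 for MKI67 (-0.26 to 0.03) and -0.08 for FOXM1 (-0.2 to 0.04). CDCA3, which helps degrade the mitotic-entry inhibitor WEE1, differed by -0.11 (adjusted p = 0.211, and 0.045 with the block).

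The combination was then set against ASTX660 alone, which asks for the change with SGI-110 when ASTX660 is present and shares no array with the comparison of SGI-110 and solvent. Here 21 members fell and 0 rose, against 7.69% of all genes called lower and 8.37% called higher. The median change was -0.24, against -0.01 over all genes, and 44 members were below 0. At an adjusted p under 0.01, 11 fell, against 2.99% of all genes. Of the 22 members called for SGI-110 against solvent, 19 were also called here, which is 86.4% of that list and 90.5% of this one. Of all tested genes, 590 were called lower in both comparisons, which is 78.8% of those called lower for SGI-110 against solvent and 60.5% of those called lower here. CDC20, NUF2 and PLK1 were called only against solvent, and KIF23 and CDC25B only against ASTX660. That a gene passed in 1 of these comparisons does not show that the 2 changes differ. HMMR was again the widest, 1.4-fold lower in combination than in ASTX660 cells (adjusted p = 0.00202), followed by CENPE at -0.45 and BUB1 and KIF23 at -0.43. CCNB2 had the smallest adjusted p (0.00033, 1.23-fold lower). Across the 48 members the log2 changes of these comparisons had a Pearson r of 0.913 and a Spearman rho of 0.908, beside a Pearson r of 0.889 across all tested genes, which are descriptions across genes that share arrays within each comparison.

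Leaving out ASTX660 array 2, the array that stood apart, left 12 of the 21 members called. The 9 lost were CDC25B, CENPA, CENPE, KIF18A, KIF20A, KIF4A, PTTG1, TPX2 and TTK, with adjusted p between 0.0535 and 0.108. Each of these 9 was also lost without at least 1 other array, among combination arrays 2, 9 and 13, ASTX660 arrays 9 and 13, the 3 solvent arrays and SGI-110 arrays 2 and 9 (adjusted p between 0.0502 and 0.142). KIF23 was lost without combination array 2 (adjusted p = 0.0562). CCNB1, CCNB2, CCNA2, CKS2, NEK2, BUB1, BUB1B, MAD2L1, HMMR, DLGAP5 and ASPM were called without any 1 of the 12 arrays. The share of all genes called with arrays left out was not computed. The 3 combination arrays lay below the 3 ASTX660 arrays for 30 members, against 15.2% of all genes.

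**Figure D3:**
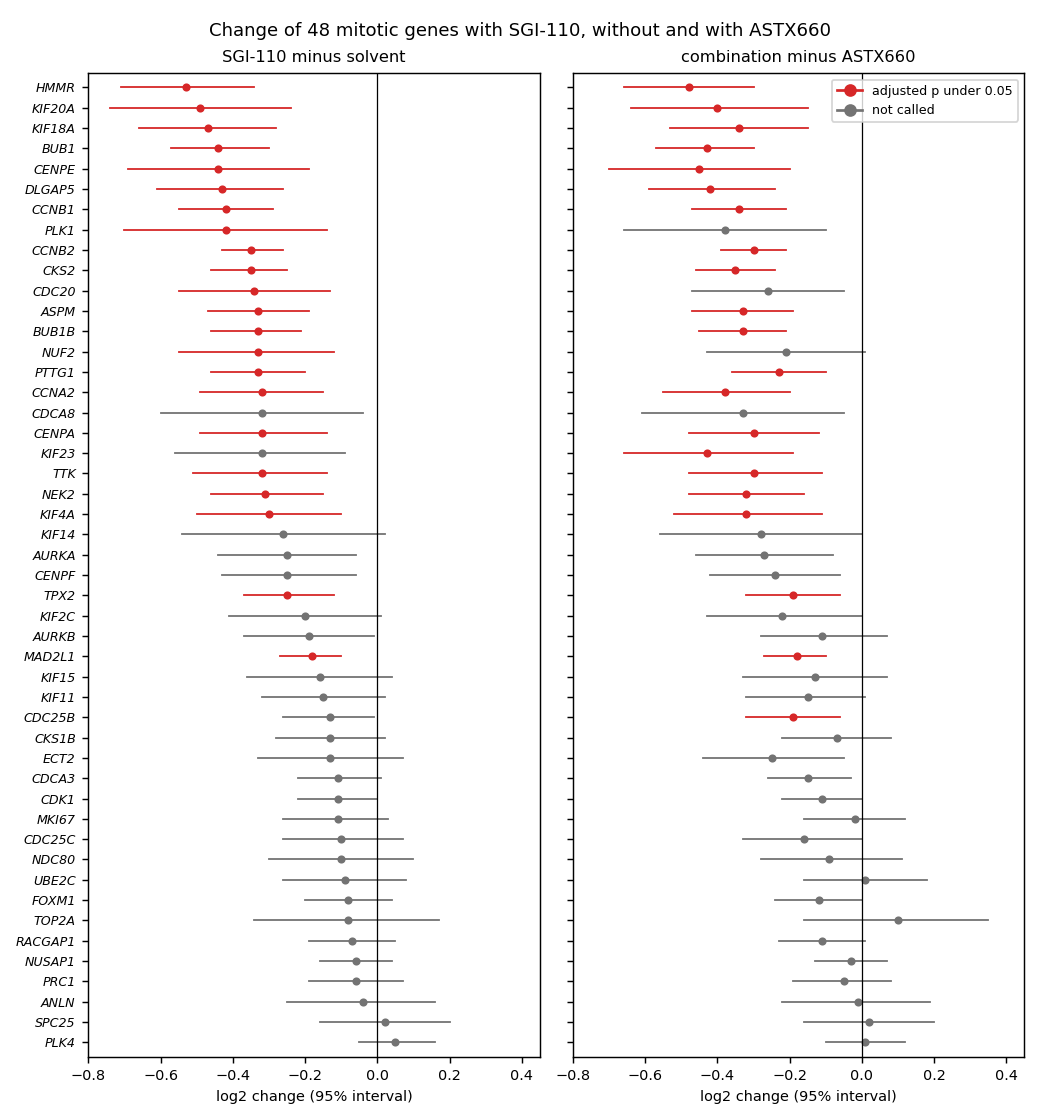
Log2 change and 95% interval of each member for SGI-110 minus solvent (left) and combination minus ASTX660 (right), which share no array, with red for an adjusted p under 0.05. The 22 red points on the left and the 21 on the right are all below 0, and 19 members are red in both.

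Against solvent, the combination lowered 15 members and raised 0, against 5.85% and 12.1% of all genes. With the array number as a block, 28 fell and 0 rose, against 10% and 18.6% of all genes. The median change was -0.22, against 0.00 over all genes. HMMR was 1.39-fold lower in combination than in solvent cells (adjusted p = 0.00197), BUB1 was 1.3-fold lower (adjusted p = 0.00143) and CCNB2 was 1.26-fold lower (adjusted p = 0.000132). Apart from KIF23, the members called here were called in both comparisons above, and 14 were called in all 3. The share of all genes called lower in all 3 was not computed. These 14 were CCNB1, CCNB2, CCNA2, CKS2, NEK2, BUB1, BUB1B, MAD2L1, PTTG1, KIF20A, HMMR, DLGAP5, ASPM and TPX2. Without solvent array 13 the calls of ASPM, KIF20A, KIF23, NEK2 and TPX2 were lost (adjusted p between 0.0613 and 0.0963). Without solvent array 2 those of ASPM, KIF20A, KIF23 and TPX2 were lost (adjusted p between 0.0605 and 0.107). Leaving out 1 combination array also ended calls, among ASPM, CCNA2, KIF20A, KIF23, NEK2 and TPX2 (adjusted p between 0.0506 and 0.109). This comparison shares its solvent arrays with the first and its combination arrays with the second. For 22 members the combination arrays all lay below the solvent arrays, against 16.9% of all genes.

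ASTX660 alone gave no called change in any member. Against solvent 0 of 48 passed, as did 0% of all genes, and at an unadjusted p under 0.05 there were 0 members, against 7.05% of all genes. With the array number as a block 0 members passed, against 0% of all genes called lower and 0.00788%, or 1 gene, called higher. The median of the members was 0.03 against 0.03 over all genes, and the widest values were 0.16 for ECT2 (95% interval -0.04 to 0.36) and -0.15 for TOP2A (-0.41 to 0.1). These are values of the brightest probe sets. On their second probe sets ECT2 differed by -0.1 and TOP2A by 0.03. The 2 dimmer probe sets of ASPM, not tested singly, differed by -0.58 and -0.61, beside 0.09 on its brightest, and were lowest on ASTX660 array 2. TOP2A read 11.79, 11.93 and 12.24 with ASTX660 and 12.18, 11.94 and 12.31 with solvent, and the low value was on the array that stood apart. The ASTX660 arrays lay above the solvent arrays without overlap for CDC25B and CDC25C, 2 members, against 7.59% of all genes. CDC25B read 9.21, 9.15 and 9.09 with ASTX660 and 9.02, 9.01 and 9.05 with solvent, a difference of 0.12 (adjusted p = 0.701).

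Adding ASTX660 to SGI-110 also gave no called change. The labels give 24 h of SGI-110 for the combination and 33 h for SGI-110 alone. In this comparison and in the interaction, ASTX660 and that labelled difference in time cannot be told apart. Against SGI-110 alone, 0 of 48 members passed, as did 0% of all genes, and 1 member, KIF18A, had an unadjusted p under 0.05, against 2.92% of all genes. The median difference was 0.06 against 0.01 over all genes, and 4 members (8.33%) were below 0, against 41.3% of all genes. The 95% intervals of the members ran from -0.29 to 0.40. KIF18A was 0.21 higher with the combination (95% interval 0.02 to 0.4). CCNB1, KIF15 and KIF18A were the 3 members whose combination arrays all lay above the SGI-110 arrays, against 4.53% of all genes. CCNB1 differed by 0.12 (95% interval -0.01 to 0.25) and KIF15 by 0.15 (-0.05 to 0.35). In the interaction, the change with the combination minus the sum of the changes with each agent, 0 members passed and the median was 0.00, with intervals from -0.43 to 0.54. At an unadjusted p under 0.05 the interaction had 0 members, against 1.61% of all genes.

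Other probe sets of the members were read as a check of direction. The 48 members had 87 probe sets, of which 80 lay above the array median on all arrays, and 74 of these were below 0 for SGI-110 against solvent. For 20 of 23 members with several such probe sets, all were below 0. For the combination, 69 of the 80 were below 0 against solvent and 69 against ASTX660, with all below 0 for 18 and 17 of the 23 members. The second probe set of AURKB, a member called only with the block, was 0.09 higher with SGI-110 than with solvent. The share over the probe sets of all genes was not computed. CCNB1 on its second probe set read 9.47, 9.57 and 9.68 with the combination, 9.56, 9.37 and 9.55 with SGI-110, 10.18, 9.9 and 10.15 with ASTX660, and 10.06, 9.86 and 10.08 with solvent, with no overlap between arrays with and without SGI-110. HMMR on its second probe set read 10.02, 9.91 and 10.27 with the combination, 10.03, 9.89 and 10.08 with SGI-110, 10.67, 10.54 and 10.56 with ASTX660, and 10.53, 10.39 and 10.67 with solvent, likewise with no overlap. ASPM was an exception, and its calls did not hold when its probe sets were averaged. For SGI-110 against solvent the mean of its probe sets differed by -0.44 (adjusted p = 0.152), and for the combination against solvent by -0.31 (adjusted p = 0.288). One of its other probe sets read 8.11, 8.08 and 8.57 with the combination and 7.3, 8.02 and 8.8 with ASTX660, so its groups overlapped, and in that comparison the mean of its probe sets differed by 0.06 in place of -0.33 (adjusted p = 0.878). The 2 other probe sets of CCNB2 were dim, and its calls were lost when all 3 were averaged (adjusted p = 0.397 for SGI-110 against solvent). Averaging also ended both calls of the combination for NEK2 (adjusted p = 0.051 against solvent and 0.0513 against ASTX660) and for KIF23 (adjusted p = 0.293 against solvent and 0.079 against ASTX660).

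Mitotic genes outside the set were read from a wider list. Of its 72 tested genes, 7 fell and 0 rose in SGI-110 cells against solvent, with a median of -0.06. The 7 are 9.72% of the list, against 5.9% of all genes called lower. BORA, which helps AURKA activate PLK1, read 9.89, 9.9 and 9.86 with SGI-110 and 10.36, 10.22 and 10.38 with solvent (log2 change -0.44, adjusted p = 0.000136). KPNA2, an importin that also regulates TPX2, had a log2 change of -0.27 (adjusted p = 0.000754), and CDKN3, a phosphatase that acts on cyclin-dependent kinases, one of -0.3 (adjusted p = 0.0015). Against ASTX660 the combination lowered 6 of the 72 and raised 0, and these 8.33% stood near the 7.69% of all genes called lower. Against solvent the combination lowered 4 (5.56%) and raised 1 (1.39%), beside 5.85% and 12.1% of all genes. Most genes of G1/S and DNA replication were not called, 33 of 39 in SGI-110 cells against solvent. There 1 fell (2.56%) and 5 rose (12.8%), against 5.9% and 9.5% of all genes, with a median of 0.03. RRM2, a subunit of ribonucleotide reductase, rose by 0.17 (adjusted p = 0.00295). The calls of DBF4, which fell, and of CCNE2, CLSPN, FEN1 and TK1, which rose, were each lost without at least 1 array.

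Among 15 tested genes of the DREAM and MuvB complexes with MYBL2, 0 fell and 2 rose in SGI-110 cells, a share of 13.3% beside 9.5% of all genes called higher. LIN37, one of these 2, was not called without SGI-110 array 9 or 13 or solvent array 2 or 9 (adjusted p between 0.0611 and 0.117). E2F7, a repressor of the E2F family, read 10.34, 10.45 and 10.5 with SGI-110 and 9.81, 9.76 and 9.94 with solvent (log2 change 0.59, adjusted p = 0.000123). MYBL2, which encodes B-MYB, differed by -0.01 (adjusted p = 0.941). Of 9 tested p53 targets that restrain the cycle, 7 rose and 0 fell, with a median of 1.32 and 77.8% called higher, against 9.5% of all genes. CDKN1A, which encodes p21, read 10.43, 10.29 and 10.63 with the combination, 10.46, 10.29 and 10.64 with SGI-110, 8.45, 8.23 and 8.44 with ASTX660, and 8.17, 7.9 and 8.32 with solvent. It was higher in SGI-110 than in solvent cells by 2.33 log2 units (SE 0.116, adjusted p = 4.96e-08) and in combination than in ASTX660 cells by 2.08 (adjusted p = 1.71e-07). SESN1 (1.57), MDM2 (1.32) and PLK2 (2.02) rose as well. The part of these genes in the change of the members was not tested.

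**Figure D4:**
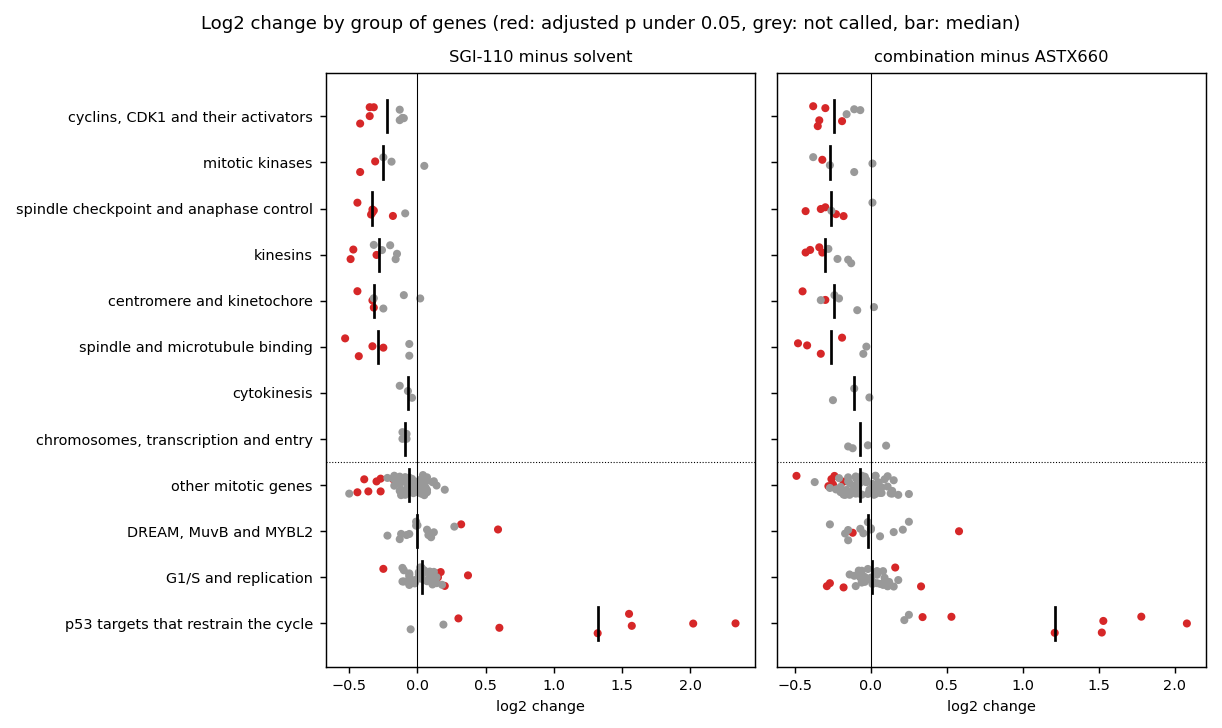
Log2 change of every tested gene by role group of the members (above the dotted line) and in other lists (below it), for SGI-110 minus solvent (left) and combination minus ASTX660 (right), with red for an adjusted p under 0.05 and the bar at the median. In SGI-110 against solvent the medians of the first 6 member groups lie between -0.33 and -0.23, those of cytokinesis and of the last group at -0.07 and -0.1, and that of the p53 targets at 1.32.

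Of 8 tested markers of other cell types, 6 were not called in SGI-110 cells against solvent and 2 rose (25%, against 9.5% of all genes), with a median of 0.03. The summed linear signal of the 13 markers with a probe set was 1833 to 2343 with the combination, 1915 to 2439 with SGI-110, 1296 to 1458 with ASTX660 and 1351 to 1494 with solvent. The 2 that rose were PECAM1, also expressed by myeloid cells, at 0.85 (adjusted p = 0.00156) and the keratin KRT18 at 0.83 (adjusted p = 0.0135). KRT18 missed the threshold without solvent array 2 (adjusted p = 0.0647) or SGI-110 array 13 (adjusted p = 0.0648). Without these 2 genes the sum was 430 to 476 with the combination, 485 to 544 with SGI-110, 396 to 501 with ASTX660 and 489 to 530 with solvent. The part of these markers in the change of the mitotic genes was not tested.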

How the data were processed

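The data are 12 Affymetrix expression arrays of ML-2 cells, 3 in each of 4 groups, made from 100 ng of total RNA per the labels. The deposited values are log2 intensities that the authors obtained with RMA in the affy package, per the submitters' processing notes, which give no version or number of RMA runs. The table held 54675 probe sets with values from 2.078 to 14.384. The platform annotation listed 42898 of them, 1801 with several genes were set aside, and 41091 were used. For every gene the brightest probe set by its mean over the 12 arrays was taken, and genes above the array median in at least 3 arrays were tested. RMA values compress large differences of dim probe sets, so a fold is a ratio of array signals.

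Group means were compared with limma (version 3.58.1, R 4.3.3), with variances moderated along an intensity trend. P-values were adjusted by Benjamini-Hochberg over the 12689 genes of each comparison, and called means an adjusted p under 0.05. All adjusted p in the text come from this fit unless a block, a left-out array or another setting is named. The fit had 8 residual degrees of freedom, and the number of arrays limits the precision. The main fit was tested on simulated data with known shifts in the SGI-110 arrays. Its noise was independent between arrays, so effects shared by an array number were not part of that test. The 48 members, the other gene lists and the rule for named genes were chosen with earlier results of these data known. That rule took the 10 members with the smallest adjusted p for SGI-110 and for the combination against solvent, 10 standard mitotic genes whatever their values, and up to 4 genes of each other list. Promoter windows came from RefSeq, GRCh38.p14, and were searched for 3 motifs on both strands.

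The titles carry the numbers 2, 9 and 13 in every group. Deviations from group means correlated between same-numbered arrays by 0.377, 0.367 and 0.572 for SGI-110 with solvent. For the combination with solvent they correlated by 0.15, 0.159 and 0.541, weakly for numbers 2 and 9. A block fit stands beside the results of both comparisons. Other alternatives were median centring, also with the block, quantile normalization, the mean over probe sets, no brightness filter, and a filter over the median of every array. Further ones were no intensity trend, robust moderation of variances, array weights, only the groups compared, and leaving out each array. A stricter threshold was also tried. The 23 alternatives named below hold the block but not the stricter threshold.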

Additional observations from a re-analysis of the deposited data

How the results depend on the processing

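Under all alternatives the members called for SGI-110 or the combination, against a group without SGI-110, were lower, and no member was called higher in any comparison. At an adjusted p under 0.01, 11 members fell for SGI-110 against solvent and 11 for the combination against ASTX660. With the array number as a replicate block, the combination lowered 28 members against solvent, or 26 with median centring as well, and 33 against ASTX660, against 13.1% of all genes called lower. No member called without the block lost its call with it in the comparisons of SGI-110 or the combination with solvent, or of the combination with ASTX660. For the last comparison the numbers were not shown to pair the arrays, since same-numbered arrays correlated by 0.057, 0.158 and 0.539. The same limit holds for the combination with solvent, with 0.15, 0.159 and 0.541, where again only number 13 correlated clearly. Leaving out 1 array gave 13 to 23 members for SGI-110 against solvent, 10 to 19 for the combination against solvent and 12 to 23 for the combination against ASTX660. The lowest counts for SGI-110 against solvent were 13 without SGI-110 array 9 and 14 without solvent array 2 or 13. The cause was not tested. Processing settings also ended calls for SGI-110 against solvent. KIF4A and NUF2 were lost with median centring (adjusted p = 0.0529 for each). PLK1, CDC20, KIF4A and NUF2 were lost without the intensity trend (0.0593 to 0.0663). PLK1 and KIF4A were lost without the brightness filter, and NUF2 with only the groups compared. Such settings ended combination calls of ASPM and TPX2 against solvent. Against ASTX660 they ended those of CDC25B, CENPA, KIF18A, KIF20A, KIF4A, TPX2 and TTK. ASPM reversed for the combination against ASTX660 with the mean over probe sets (0.06, adjusted p = 0.878), where 2 dimmer probe sets were low on ASTX660 array 2. On ASTX660 arrays 9 and 13 these probe sets also read below the solvent array of the same number, by less. Called at an adjusted p under 0.05 under all 23 alternatives in all 3 comparisons were BUB1, BUB1B, CCNB1, CKS2, DLGAP5, HMMR and MAD2L1. The stricter threshold is not among the 23. Shares of all genes called with 1 array left out, or under all 23, were not computed. No scaling moved the median of all genes by as much as 0.1. Probe sets with several genes were not used, and the median half-width of the members' 95% intervals was 0.17 log2 units with 3 arrays per group.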
